A study of Mus musculus with 71 samples.

Results

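The mitosis and spindle genes described here are 40 genes picked by name for their part in cell division: mitotic kinases and phosphatases, the spindle checkpoint, spindle motors, kinetochore subunits and proteins that shape chromosomes. Of these, 39 were analysed among the 21527 genes counted in each library, and Anln, the cytokinesis scaffold anillin, was analysed only for its promoter. All 39 passed the filter on low counts, which left 12659 genes for testing.

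The data come from SLAM-seq of male mouse embryonic stem cells (mESC), pluripotent cells from the blastocyst that divide rapidly in 2i/LIF medium. Cells of one line took up 100 µM 4-thiouridine (s4U) for 24 h and were then chased with an excess of uridine, and RNA was taken after 0, 1, 1.5, 2.3, 3.5, 5.3, 8 and 12 h of chase. The Mettl3 inhibitor STM2457 (20 µM, in 0.2% DMSO), which blocks the main m6A methyltransferase of mRNA, or 0.2% DMSO alone was given from 6 h before the chase to its end, so the treatment had lasted 6 h at the onset of the chase and 18 h at its last time point. Each of these 16 groups has 4 libraries except STM2457 at 3.5 h, which has 3, and 4 unlabelled libraries per treatment bring the total to 71. Wells were seeded so as to be confluent when collected, and the labels do not say whether density was equal in all groups. The study's methods call its replicates biologically independent, while the labels of these libraries do not say whether each came from its own culture. The p-values measure the spread between these libraries.

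Mitosis is driven by cyclin-dependent kinase 1 (Cdk1) together with the Polo-like and Aurora kinases, and it ends when the anaphase-promoting complex, helped by Cdc20, releases the sister chromatids and degrades mitotic cyclins. The transcripts of these proteins are made mostly in late S and G2 phase and decline as cells leave the cycle or rest in G1. In embryonic stem cells G1 is short, so a large share of a culture is in S, G2 or mitosis at any moment. In bulk RNA, fewer cells in these phases and less of the transcript per cell cannot be told apart.

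By role, the members fall into 7 groups. Mitotic entry is represented by the kinases Cdk1, Plk1 and Aurka and the phosphatases Cdc25b and Cdc25c, which activate Cdk1. The spindle checkpoint and the step to anaphase are represented by Bub1, Bub1b, Bub3, Mad2l1 and Ttk, by the activator Cdc20 and by securin (Pttg1) and separase (Espl1). Aurkb, Incenp, Birc5 and Cdca8 form the chromosomal passenger complex. Spindle motors and microtubule-binding proteins are Tpx2, Kif11, Kif2c and Nusap1, and the central spindle and cytokinesis are represented by Kif23, Kif20a, Kif4, Prc1, Ect2 and Anln. At the kinetochore are Cenpe, Cenpf and the 4 subunits of the NDC80 complex (Ndc80, Nuf2, Spc24 and Spc25). Chromosome structure is represented by topoisomerase Top2a, by Smc2, Smc4, Ncapd2, Ncapg and Ncaph of condensin, and by Mki67, the surface protein of mitotic chromosomes that serves as the Ki-67 proliferation marker. In GENCODE M21 on GRCm38, Aurka lies at chr2:172356190-172370535 and Cdk1 at chr10:69335146-69352938, both on the minus strand. Plk1 lies at chr7:122159439-122169873 and Prc1 at chr7:80294450-80316259, both on the plus strand. Kif4, at chrX:100625737-100727214, is the only member on the X chromosome.

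Promoters of many mitotic genes share 2 elements, the cell cycle genes homology region (CHR), bound by the MuvB core of the DREAM and B-MYB complexes, and CCAAT boxes, bound by NF-Y. Both were sought on either strand, the CHR as TTTGAA or TTCGAA and the other as CCAAT, from 250 bases before to 50 after the transcription starts listed by RefSeq on GRCm38. An entry was found for 33 of the 40 members, Anln among them. The CHR letters were present in 26 of these (78.8%), against 21.7% of 27025 genes, the CCAAT letters in 24 (72.7%, against 41.1%) and both in 23 (69.7%, against 9.65%). The unrelated GC-rich word GGCGG, sought in the same way, was present in 30 (90.9%, against 51.2%). To show what these promoters share, the 100 bases before the start are given 5′ to 3′ on the strand of the gene for 5 members whose read counts are described below, with matches to the CHR and to CCAAT in capitals.
Cdk1 (chr10:69352913-69353012, minus strand): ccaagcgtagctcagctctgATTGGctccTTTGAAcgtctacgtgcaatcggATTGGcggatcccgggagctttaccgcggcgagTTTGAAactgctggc
Kif11 (chr19:37376282-37376381, plus strand): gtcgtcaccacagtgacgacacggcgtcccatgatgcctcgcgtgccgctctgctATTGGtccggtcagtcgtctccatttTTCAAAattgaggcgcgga
Prc1 (chr7:80294376-80294475, plus strand): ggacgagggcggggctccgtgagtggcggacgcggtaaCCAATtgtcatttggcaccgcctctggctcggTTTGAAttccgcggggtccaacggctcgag
Cdc20 (chr4:118437344-118437443, minus strand): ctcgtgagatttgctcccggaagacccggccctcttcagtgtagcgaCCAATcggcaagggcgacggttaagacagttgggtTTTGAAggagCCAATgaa
Aurka (chr2:172370571-172370670, minus strand): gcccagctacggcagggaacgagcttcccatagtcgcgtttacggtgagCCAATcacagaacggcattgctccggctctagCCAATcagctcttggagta
Cdk1 has 2 CHR matches here, each with a CCAAT match upstream of it that reads ATTGG on this strand. Kif11, Prc1 (shown for the second of its listed starts) and Cdc20 have a single CHR match within the last 30 bases with a CCAAT match upstream of it, and Cdc20 has another CCAAT match downstream. In Aurka the stretch shown holds only its 2 CCAAT matches, since its CHR match lies 33 bases after the start. Of the 14 members with an entry that fell over the DMSO chase described below, 11 hold the CHR letters, as do 14 of the 18 with an entry that did not. These are matches of letters and not measured binding.

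The libraries counted 4539726 to 7368244 reads (median 5726508), and the 39 members together took 3814 to 6332 CPM before normalization. As the libraries cover 3′ ends, a transcript gives about one fragment whatever its length, and levels are given as CPM, the usual scaled read count (cpm of edgeR), with TMM-normalized library sizes. The median over the 71 libraries was highest for Top2a (642 CPM), Ncapd2 (564 CPM), Birc5 (494 CPM) and Cdc20 (394 CPM) and lowest for Cdc25b (28.9 CPM) and Cdc25c (18.9 CPM). A large part of the reads of Nuf2 (62%), Mki67 (52.7%) and Cenpf (24.3%) mapped to more than 1 place, so their levels are uncertain. Markers of naive pluripotency, led by Pou5f1 (603 to 1103 CPM) and Klf2 (222 to 954 CPM), were present in every library except for Klf4 and Prdm14, which had a lowest value of 0 and medians of 2.66 and 1.07 CPM, and 5 of the 7 fibroblast markers (Col1a2, Col3a1, Dcn, Lum and Postn) had a median of 0.

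Libraries also differed within groups along one axis, which held 26% of the within-group variance of 8075 genes outside all lists (4.45% for the next) and went with the GC content of the 3′ ends. On a score for this axis, 12 libraries lay more than 3 median absolute deviations, scaled as for normal data, below the median. The scaled deviation was 8.74 and the median 7.99. The 12 were 1 unlabelled DMSO library, 1 of DMSO at 0 h, and 3 of DMSO and 3 of STM2457 at 1 h. To these came 2 of DMSO at 1.5 h and 2 of DMSO at 5.3 h. Several members moved strongly with the score. Plk1 was at 69.3 to 221 CPM in the 12 libraries and at 165 to 432 CPM in the other 59, and Bub1b at 32.4 to 78.0 against 93.6 to 166 CPM. Smc4 went the other way, with 103 to 152 CPM in the 12 and 51.2 to 121 CPM in the 59. The medians of Aurka were 153 and 155 CPM. Counts of calls are therefore also given with this score as a covariate and without the 12 libraries, both chosen after seeing the data. Within groups, 13 members had a correlation above 0.5 with the score and 11 one below −0.5, which is a description over libraries that share their groups.

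**Figure D1:**
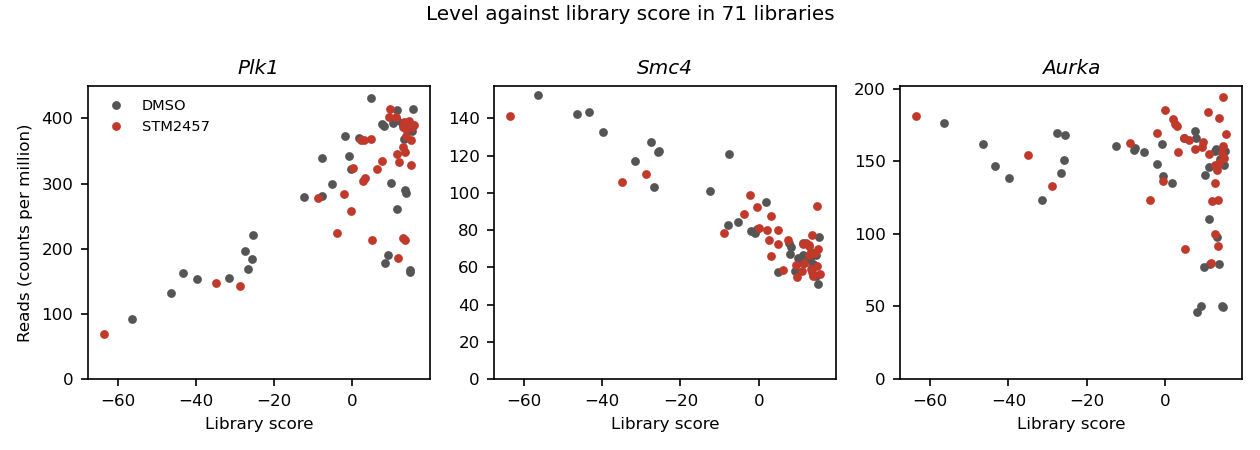
Reads (CPM, linear axes from 0) of Plk1, Smc4 and Aurka against the library score in each of the 71 libraries, grey for DMSO and red for STM2457. Plk1 rises with the score, from 69.3 CPM in the lowest library, Smc4 declines with it, and Aurka shows no such slope, its low values lying at high scores.

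The clearest pattern among the members was a decline over the chase in DMSO, which compares 12 h with 0 h. Without inhibitor, 18 of the 39 members fell and none rose (edgeR's quasi-likelihood test, Benjamini-Hochberg adjusted p under 0.01; 30 lower and 0 higher at an unadjusted p under 0.05, where 17.7% of all genes were lower), while 8.2% of all genes tested fell. The median log2 change was −0.59 for the members, against 0.04 for all 12659 genes, and 35 of the 39 values were below 0. Falls were found in 4 of the 5 genes of mitotic entry, all 4 spindle motors and microtubule-binding proteins, 4 of the 5 central spindle genes analysed, 3 of the 6 kinetochore genes, and 1 gene each of the checkpoint (Mad2l1), passenger complex (Incenp) and chromosome structure (Mki67) groups.

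Aurka, the kinase that matures the centrosomes and builds the spindle poles, had the largest change in this fit, whereas with the score as covariate Prc1 had it (log2 −1.81, against −1.70 for Aurka). Aurka was at 168, 161, 166 and 148 CPM in the 4 DMSO libraries at 0 h and at 50.6, 50.02, 46.2 and 49.9 CPM at 12 h. The groups lay far apart, and the log2 change was −1.71 ± 0.10 (SE, n = 4 and 4, adjusted p = 1.78e-21, edgeR), to 0.306 times the initial level. Its mean stayed between 142 and 161 CPM from 0 to 5.3 h and then went to 83.3 ± 9.6 CPM (SD, n = 4) at 8 h and 49.2 ± 2.0 CPM at 12 h, so that most of the decline fell in the last 2 intervals.

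Prc1, which bundles the antiparallel microtubules of the central spindle, went from 111, 133, 160 and 149 CPM to 46.7, 46.6, 52.5 and 54.7 CPM (log2 −1.46 ± 0.19, adjusted p = 2.07e-08, edgeR). Kif23, the motor subunit of centralspindlin that directs the cleavage furrow, went from 88.2, 73.2, 71.2 and 76.1 CPM to 27, 30.01, 32.5 and 26.6 CPM (log2 −1.41 ± 0.18, adjusted p = 1.18e-08, edgeR). In both, every library at 12 h lay below every library at 0 h. Cdk1, the kinase that starts mitosis, was at 157, 149, 230 and 162 CPM at 0 h and at 80.0, 94.5, 92.0 and 113 CPM at 12 h (log2 −0.88 ± 0.18, adjusted p = 0.000183, edgeR), again with no overlap. Plk1, which acts in centrosome maturation and in cytokinesis, had 221, 280, 432 and 373 CPM at 0 h and 191, 167, 178 and 165 CPM at 12 h, and its change was less certain (log2 −0.90 ± 0.26, adjusted p = 0.00819, edgeR). The lowest Plk1 value at 0 h, 221 CPM, belongs to the DMSO library with a low score.

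The other members past the threshold in DMSO were Kif11 (log2 −0.97), the motor that separates the spindle poles, Cenpf (−0.92), Nusap1 (−0.90), Ect2 (−0.85), the activator of RhoA at the furrow, Cdc25c (−0.80), Mad2l1 (−0.78), Tpx2 (−0.78), the activator of Aurora A on microtubules, Mki67 (−0.78), Ndc80 (−0.78), Incenp (−0.74), Kif20a (−0.69), Kif2c (−0.62) and Cenpe (−0.52). Aurkb, the kinase of the passenger complex, was at 55.6, 37.8, 37.6 and 48.3 CPM at 0 h and at 35.9, 24.0, 32 and 25.6 CPM at 12 h (log2 −0.61 ± 0.22, adjusted p = 0.036, edgeR) and did not pass. The X-chromosomal Kif4, a motor of chromosome arms and of the central spindle, was at 36.3 to 52.8 CPM and at 28.9 to 36.2 CPM (log2 −0.48, adjusted p = 0.038, edgeR) and did not pass either. The remaining members lay between −0.61 (Ncaph) and 0.37 (Ncapd2). Aurka, Prc1, Kif23 and 10 others kept their call in every alternative fit of 12 h against 0 h, whereas Cdc25c, Plk1, Kif2c, Cdk1 and Mad2l1 did not. Cdk1 missed the threshold without DMSO replicate 3 (log2 −0.70), Mad2l1 without DMSO replicate 2 (−0.76), and Kif2c without DMSO replicate 2 (−0.47) or 3 (−0.50). Plk1 missed it without DMSO replicate 2 (−0.96), 3 (−0.74) or 4 (−0.82), and Cdc25c without any 1 of the 4 DMSO replicates, with the score as covariate (−0.50, adjusted p = 0.0903, edgeR) and without the 12 low-score libraries (−0.55, adjusted p = 0.087, edgeR). In 26 of the 39 members every library at 12 h lay below every library at 0 h, as in 13% of all genes tested, and in 1, Spc24, above.

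The mean score of the groups went from −8.8 at 0 h to 11.7 at 12 h in DMSO and from 2.6 to 10.8 in STM2457. The decline was also found with the score accounted for. With the score as a covariate 27 members fell (9.31% of all genes), among them 17 of the 18, and without the 12 libraries 20 fell (8.68% of 13565 genes), among them 17 of the 18. With 12 h set against the mean of 2.3 and 3.5 h, 2 times with no low-score library in either treatment, 20 members fell (5.99% of all genes), of which 14 are among the 18. With the score as covariate the log2 change of Plk1 was −1.44 and that of Cdc20 was −0.90, against −0.90 and −0.46 without.

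**Figure D2:**
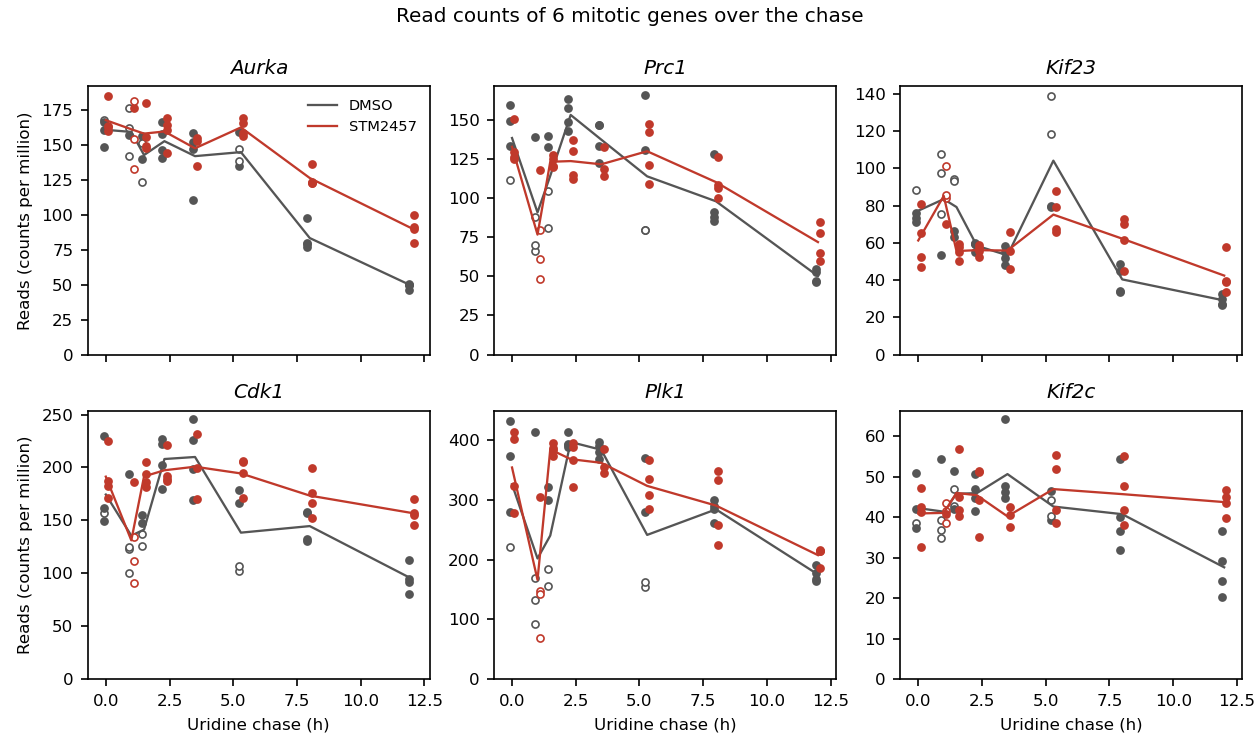
Reads (CPM) of 6 members over hours of uridine chase, with 1 point per library (grey DMSO, red STM2457, open points for libraries with a low score) and lines through the group means. Aurka stays near 150 CPM until 5.3 h and then drops to 49.2 CPM in DMSO and 90.3 CPM in STM2457, and the group means of the other 5 also end higher in STM2457.

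In STM2457 the same interval gave fewer calls. Of the 39 members 6 fell (background 3.03% of all genes) and none rose: Aurka (log2 −0.89 ± 0.10, adjusted p = 1.69e-09, edgeR), Prc1 (−0.89 ± 0.19), Nusap1 (−0.76 ± 0.14), Ndc80 (−0.65 ± 0.17), Cenpf (−0.61 ± 0.16) and Incenp (−0.49 ± 0.12). The median log2 change of the members was −0.27, against 0.00 for all genes. All 6 are among the 18 that fell in DMSO, a comparison that shares no library with this one. In each of those 18 the change in STM2457 was closer to 0, which their choice by a large fall in DMSO favours, so it supports nothing by itself. Aurka went from 185, 162, 163 and 160 CPM to 89.8, 79.8, 100.4 and 91.4 CPM, and Cdk1 from 182, 171, 188 and 225 CPM to 145, 170, 155 and 157 CPM (log2 −0.29 ± 0.18, adjusted p = 0.357, edgeR). Birc5, or survivin, which brings the passenger complex to the centromere, was at 442, 400, 443 and 480 CPM at 0 h and at 436, 538, 558 and 526 CPM at 12 h (log2 0.22 ± 0.12, adjusted p = 0.279, edgeR). The count rose to 15 with the score as covariate (background 5.9%) and to 11 without the 12 libraries (4.72%), and was 3 against 2.3 and 3.5 h (1.78%). It was 2 without STM2457 replicate 1 and 2 without STM2457 replicate 2. Only Aurka and Nusap1 were called in STM2457 under every setting that leaves out a replicate.

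**Figure D3:**
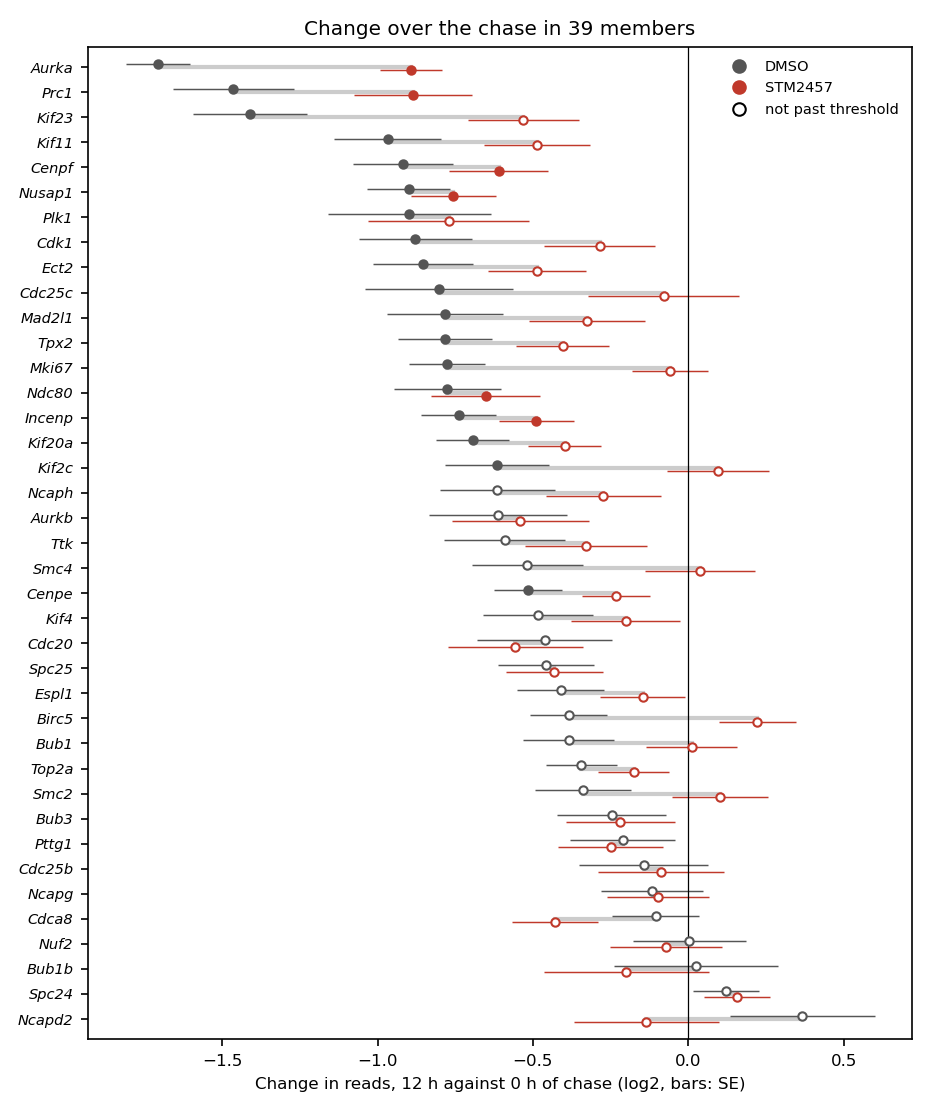
Log2 change in reads from 0 to 12 h of chase for the 39 members, ordered by the change in DMSO (grey), with STM2457 in red, bars for the standard error, and filled points for an adjusted p under 0.01 (edgeR). DMSO points lie to the left of the STM2457 points in 33 of the 39 members, and filled points number 18 in DMSO and 6 in STM2457.

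The difference between these changes was tested as such, (STM2457 minus DMSO at 12 h) minus (STM2457 minus DMSO at 0 h). It was above 0 in 33 of the 39 members, with a median of 0.28 on the log2 scale, against −0.03 for all genes, of which 47.2% were above 0. Past the threshold were 2 members, Aurka (0.82 ± 0.14, adjusted p = 9.37e-05, edgeR) and Mki67 (0.72 ± 0.17, adjusted p = 0.00884, edgeR), with a background of 0.916%, and none was below. Mki67 went from 128, 107, 105 and 111 CPM to 65.9, 62.4, 78.5 and 56.9 CPM in DMSO but from 83.3, 91.3, 89.2 and 92.1 CPM to 90.8, 78.2, 82.1 and 90.6 CPM in STM2457. The DMSO libraries all lay above the STM2457 libraries at 0 h, and at 12 h only the highest DMSO library (78.5 CPM) lay above the lowest of STM2457 (78.2 CPM). The call of Mki67 was lost in 7 of the 8 settings that leave out a replicate number and with reads that map to 1 place, where the difference was 0.81, while Aurka kept its call in all of them. With the score as a covariate 6 members were called (background 1.72%), namely Aurka, Prc1 (0.78), Cdk1 (0.76), Birc5 (0.74), Kif23 (0.72) and Mki67 (0.62). Without the 12 libraries 5 were called (1.47%), and against 2.3 and 3.5 h only Aurka was (0.82, background 0.845%), with 35 of the 39 members above 0.

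At 12 h of chase, after 18 h of treatment, 4 members were higher in STM2457 than in DMSO (background 3.85%) and none was lower. Every STM2457 library lay above every DMSO library in 9 members and below in 4, namely Cdc20, Ncapd2, Cdca8 and Ndc80. Cdc20 was at 268 to 297 CPM in STM2457 and at 321 to 390 CPM in DMSO. The share of all genes without overlap at 12 h was not computed. Aurka was higher by 0.88 ± 0.10 on the log2 scale (1.84-fold, adjusted p = 8.54e-10, edgeR), with every STM2457 library above every DMSO library. Cdk1 was 1.65-fold higher (log2 0.73 ± 0.18, adjusted p = 0.00401, edgeR), with 145 CPM in the lowest STM2457 library and 113 CPM in the highest DMSO library. Kif2c, the depolymerase that corrects wrong attachments at centromeres, was at 45.1, 43.4, 39.8 and 46.7 CPM in STM2457 and at 36.7, 24.3, 20.3 and 29.1 CPM in DMSO (1.59-fold, adjusted p = 0.00394, edgeR). Birc5 was 1.39-fold higher, with 359 to 382 CPM in DMSO and 436 to 558 CPM in STM2457 (adjusted p = 0.00527, edgeR). The calls of Cdk1, Kif2c and Birc5 were each lost in some settings that leave out a replicate number, with log2 differences of 0.65 to 0.71, 0.54 to 0.68 and 0.46 to 0.49 there. With the score as covariate 9 members were higher (5.94% of all genes) and without the 12 libraries 10 were (5.65%). These comparisons share the 12 h libraries with the changes over the chase.

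Earlier times gave other calls. At 1.5 h of chase, after 7.5 h of treatment, 7 members were lower in STM2457 (background 4.02%) and none was higher: Cdc25c (log2 −1.03), Nusap1 (−0.79), Smc4 (−0.71), Kif11 (−0.68), Ndc80 (−0.63), Ncapg (−0.59) and Mki67 (−0.53). Of the 4 DMSO libraries at this time 2 have a low score and their group mean was −15.8, against 13.7 for STM2457. Within groups all 7 correlated negatively with the score, from −0.82 (Smc4) to −0.31 (Nusap1), so their counts were lower where the score was higher. With the score as covariate the number of lower genes among all genes went from 509 to 153. Which of the 7 stayed called in that fit is not given here. Single calls were made at 1 h (Spc24 lower, background 0.419%), 5.3 h (Ndc80 lower, 1.98%) and 8 h (Aurka higher by 0.60, 1.79%), and no member was called at 0 h, 2.3 h or 3.5 h, where 1.68%, 1.61% and 1.3% of all genes were (edgeR; 9, 7 and 6 members, all lower, had an unadjusted p under 0.05, as had 7.23%, 6.44% and 6% of all genes in that direction). The median difference of the members was −0.07 at 0 h, −0.17 at 1 h, −0.09 at 1.5 h, −0.11 at 2.3 h, −0.09 at 3.5 h, 0.00 at 5.3 h, 0.04 at 8 h and 0.17 at 12 h. The 14 calls at the 8 single times ranged from 6 to 27 when 1 replicate number was left out.

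**Figure D4:**
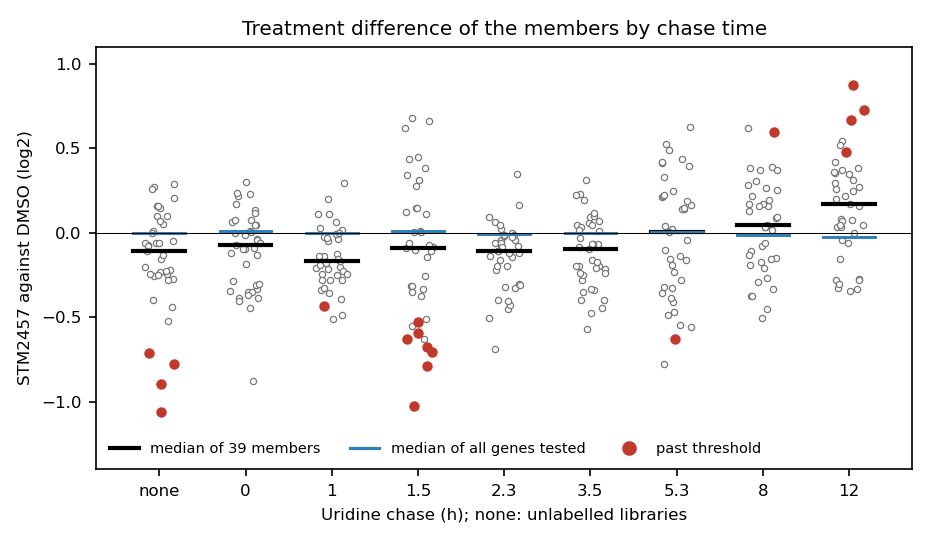
Difference in reads between STM2457 and DMSO (log2) of the 39 members in unlabelled libraries and at each chase time, filled red for an adjusted p under 0.01 (edgeR), with black bars for the members' median and blue bars for the median of all genes tested. The black bar lies at −0.11 in unlabelled libraries and moves from −0.07 at 0 h to 0.17 at 12 h, while the blue bar stays near 0.

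Averaged over the 8 labelled times, 3 members were higher in STM2457 (background 13.9%) and 8 were lower (12.6%). With the score as covariate 3 were higher (14.3%) and 10 lower (13.9%), and without the 12 libraries only Aurka was higher (10.5%) and 10 were lower (9.48%), Pttg1, Spc24 and Ncapd2 among them. The higher ones were Nuf2 (log2 0.26 ± 0.06), Aurka (0.25 ± 0.04) and Cdk1 (0.23 ± 0.06). Aurka ranged from 46.2 to 176 CPM (median 147) in 32 DMSO libraries and from 79.8 to 185 CPM (median 155) in 31 STM2457 libraries, so the treatments overlap widely. Cdc25c had a median of 23.6 CPM in DMSO and 17.9 CPM in STM2457 (log2 −0.50 ± 0.09, adjusted p = 2.34e-06, edgeR). Ndc80, the outer subunit that grips microtubules, had medians of 48.5 and 34 CPM (log2 −0.47 ± 0.06, adjusted p = 2.24e-09, edgeR). Nusap1, which bundles spindle microtubules near chromosomes, had medians of 53.4 and 36.6 CPM (log2 −0.45 ± 0.05, adjusted p = 2.72e-12, edgeR). Then came Spc25 (log2 −0.34 ± 0.06), the partner of Ndc80 in the NDC80 complex, Cdc20 (−0.31 ± 0.08), the condensin subunit Ncapg (−0.28 ± 0.06), Cdca8 (−0.27 ± 0.05), or borealin, and the checkpoint kinase Bub1 (−0.17 ± 0.05). Within the NDC80 complex Nuf2 was thus higher and Ndc80 and Spc25 were lower, while Spc24 had a difference of −0.11 (adjusted p = 0.018, edgeR) and was called lower with the score as covariate (−0.16) and without the 12 libraries (−0.14). Nuf2 lost its call with reads that map to 1 place (log2 0.27) and without the 12 libraries (0.16), and Cdk1 also without these (0.17). Bub1 lost its call with the score as covariate (−0.15, adjusted p = 0.0158, edgeR) and without the 12 libraries (−0.20, adjusted p = 0.0115, edgeR). The values of Plk1 (0.13), Aurkb (0.07) and Kif4 (0.15) did not pass, and that of Plk1 was −0.06 with the score as covariate and −0.02 without the 12 libraries.

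The levels of the other kinases over the chase were as follows. The mean of Plk1 in DMSO was 326.3 ± 94.2 CPM (SD, n = 4) at 0 h, 202.0 ± 144.6 CPM at 1 h, 240.4 ± 83.0 CPM at 1.5 h, 397.1 CPM (range 389 to 414) at 2.3 h, 384.0 ± 12.7 CPM at 3.5 h, 241.5 ± 103.0 CPM at 5.3 h, 284.3 ± 16.7 CPM at 8 h and 175.2 ± 12.1 CPM at 12 h. The groups with a large SD are those that hold low-score libraries. In STM2457 it was 354.4, 166.2, 384.6, 368.4, 362.3, 323.6, 290.6 and 207.6 CPM at the same times. Cdk1 in DMSO had means of 174.4, 135.6, 141.3, 208.0, 209.9, 138.4, 144.6 and 94.8 CPM, and in STM2457 of 191.4, 131.2, 191.6, 197.4, 200.7, 194.4, 173.4 and 157.0 CPM. Aurkb stayed between 29.1 and 45.2 CPM in the DMSO means and between 31 and 54.8 CPM in those of STM2457, with SDs of 3.0 to 16.8 CPM. Kif4 had means of 31.8 to 45.2 CPM in DMSO and 38.4 to 52.4 CPM in STM2457. In unlabelled libraries of DMSO and STM2457 the means were 165.1 and 183.1 CPM for Aurka, 194.8 and 208.6 CPM for Cdk1, 317.2 and 366.0 CPM for Plk1, 41.8 and 40.3 CPM for Aurkb and 40.7 and 34.4 CPM for Kif4.

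The 4 unlabelled libraries of each treatment gave the same order for some of these genes without any label or chase. Lower in STM2457 were 4 members (background 0.845%) and none was higher. Nusap1 was at 59.8, 57.5, 66.2 and 62.6 CPM in DMSO and at 37.1, 38.7, 37.9 and 36.2 CPM in STM2457 (log2 −0.71, adjusted p = 0.00023, edgeR). Ndc80 was at 50.8 to 64 CPM and 22.7 to 39 CPM (log2 −0.89), Ncapg at 65.7 to 110 CPM and 42.4 to 54.6 CPM (−0.78), and Cdc25c at 24.4 to 32.3 CPM and 9.5 to 16.6 CPM (−1.06). None of the 4 overlapped between treatments. Ect2, lower in STM2457, and Aurka, higher in STM2457, did not overlap either, though neither was called in this fit. The share of all genes without overlap in these libraries was not computed. The unlabelled DMSO group holds a low-score library (replicate 4) and had a mean score of −7.1, against 7.8 in STM2457, and Ncapg, Cdc25c and Ndc80 had correlations of −0.66, −0.54 and −0.51 with the score within groups. All 4 were called with the score as covariate and without the 12 libraries, where Ncapg had −0.60 and −0.63 and Cdc25c −0.85 and −0.99. Without DMSO replicate 4 only Nusap1 and Ndc80 were called, as without STM2457 replicate 1, with Ncapg at −0.63 and Cdc25c at −0.99 in the former, where the genes called lower among all genes went from 107 to 31. Ncapg lost its call without STM2457 replicate 2 and Cdc25c without STM2457 replicate 3. The labels do not give the length of treatment of these libraries. At 0 h against unlabelled libraries no member was called in DMSO (background 0.513%) or in STM2457 (0.521%), with 0 calls by DESeq2 as well and 1 and 2 members at an unadjusted p under 0.05 (edgeR, background 11.4% and 12.5%), and the members' values lay between −0.30 and 0.13 and between −0.27 and 0.38 on the log2 scale.

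Label loss was followed as the share of covered T positions read as C, which falls as labelled transcripts decay and as new unlabelled ones take their place. Half-lives were fitted to these rates, averaged over replicates, corrected for the unlabelled libraries and scaled to 0 h. In both treatments 38 members passed the limits on coverage and fit, and Ttk, the checkpoint kinase Mps1, did not, with a residual standard error of 0.31 in DMSO. The members' median was 3.25 h with DMSO alone, and that with the inhibitor was 3.35 h. Medians by replicate series ran from 3.10 to 3.57 h and from 2.94 to 3.59 h. Over all 7363 transcripts the medians were 3.19 h and 3.45 h. Longer in STM2457 were 23 of the 38, and 56.7% of all transcripts. The scaled rates did not follow a smooth exponential decline. Between 3.5 and 5.3 h that of Plk1 went from 0.72 to 0.060 in DMSO and from 0.71 to 0.030 in STM2457. That of Ncapd2 went from 0.75 to 0.41 in DMSO. The mean conversion rate over all genes also went from 1.01% to 0.53% in DMSO and from 0.93% to 0.53% in STM2457. Half-lives and their order are therefore approximate. Reading the rates as half-lives also takes the level of a transcript as steady over the chase. Reads of 18 members fell in DMSO and of 6 in STM2457, so this may shift their half-lives differently in the 2 treatments. The size of such a shift was not tested.

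Condensin subunit Ncapd2 (5.14 h), securin Pttg1 (4.801 h) and Cdc20 (4.29 h) had the longest half-lives in DMSO. Kif2c (2.17 h), Spc25 (2.38 h) and Prc1 (2.42 h) had the shortest. Conversions on Kif2c were found at 0.856%, 1.37%, 1.60% and 1.39% of T positions at 0 h and at 0.531%, 0.431%, 0.364% and 0.715% at 3.5 h in DMSO. On Ncapd2 they were at 1.30%, 1.484%, 1.42% and 1.45% at 0 h and at 1.03%, 1.01%, 1.22% and 1.07% at 3.5 h. Half-lives of the mitotic kinases in DMSO and STM2457 were 2.46 and 2.96 h for Cdk1, 2.55 and 2.83 h for Aurka, 3.604 and 3.35 h for Plk1 and 2.96 and 4.05 h for Aurkb. Aurka and Prc1 had DMSO half-lives below the members' median and Kif23 (3.35 h) one above it. Kif4 had 2.50 and 3.27 h. In the 4 replicate series the half-life of Aurka ranged from 1.86 to 3.48 h in DMSO and from 2.10 to 3.32 h in STM2457, so the treatments overlap.

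No member was called for a change in half-life between treatments (limma on log2 half-lives of 4 series per treatment, 37 members with a half-life in every series, smallest adjusted p = 0.668), and 0% of the 5741 transcripts tested were. At an unadjusted p under 0.05 there were 4 members and 405 transcripts. The smallest p among the members was that of Ect2, with 4.00, 3.11, 3.74 and 2.44 h in the DMSO series and 1.70, 1.46, 1.34 and 2.38 h in the STM2457 series (limma, adjusted p = 0.668). A test on the conversions of each library, comparing 2.3 to 5.3 h with 0 h, also called 0 of 39 members and 0% of 9882 genes (edgeR), with 0 members and 270 genes at an unadjusted p under 0.05. Its median was 0.00 for the members and 0.09 for all genes on the log2 scale. The median SD of log2 half-lives between series was 0.49 over all transcripts, which limits what 4 series per treatment can show.

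**Figure D5:**
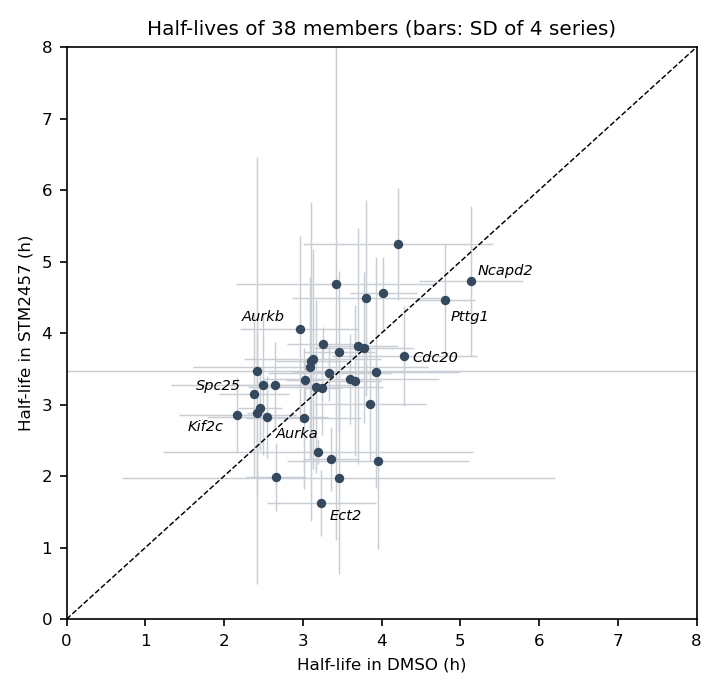
Half-lives (h) of 38 members in DMSO and in STM2457, with bars for the SD of the 4 replicate series, where they stay inside the axes, and a dashed line of equality. Points lie on both sides of the line, with Kif2c (2.17 h in DMSO) at the left, Ncapd2 (5.14 h) at the right and Ect2 (1.62 h in STM2457) lowest.

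Other cell cycle genes were taken from lists that do not contain the members. Of all genes tested, 8.2% fell in DMSO and 3.03% in STM2457, and 613 of the 12659 rose in DMSO. In the change of the treatment difference 0.916% were called higher. Of 12 mitotic cyclins and Cdk1 regulators 7 fell in DMSO and 3 in STM2457, with median log2 changes of −0.46 and −0.35. Of 31 other spindle and cytokinesis genes 14 fell and 1 rose in DMSO (median −0.42), and 6 fell in STM2457. Among 26 other kinetochore and centromere genes 7 fell in DMSO and 2 in STM2457, and among 16 of the anaphase-promoting complex 3 and 2. Cohesin had 1 of 12 lower in DMSO and none in STM2457, and none of 3 other condensin genes was called. The 28 G1/S replication genes tested had 6 lower and 3 higher in DMSO and none in STM2457, with medians of −0.03 in both. In the change of the treatment difference 1 gene of the cyclin list was called, higher (the Cdk1-binding Cks2, 1.28, named after its value was seen), and none of the other lists named in this paragraph.

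Averaged over the 8 times, the named genes of these lists were Fbxo5, the inhibitor of the anaphase-promoting complex also called Emi1 (log2 0.54), and the cyclin Ccna2 (−0.36), Cdca2 (0.71) and Cdca5 (0.67), Sgo1 (0.38) and Ska2 (−0.49), Cdc26 (0.56) and Ube2c (−0.27), Stag2 (−0.26), and the replication genes Rfc4 (−0.54) and Mcm5 (−0.27). In this average 13.9% of all genes were higher and 12.6% lower. Of the 28 G1/S replication genes 16 were lower and 1 higher (median −0.17), and of the 26 other kinetochore and centromere genes 9 were lower and 3 higher. The 31 other spindle and cytokinesis genes had 6 lower and 5 higher, and the 12 cyclins and Cdk1 regulators 4 and 2. The anaphase-promoting complex had 2 and 2 of 16, and cohesin 1 lower of 12. Of 13 transcription factors of mitotic genes 2 were higher and 4 lower, with Foxm1 at 0.36 and Tfdp2 at −0.62, and 1 fell over the DMSO chase. Of 16 p53 targets 11 were lower and 1 higher, led by Plk2 (−0.65) and Ccng1 (−0.58).

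Markers of cell state also moved with the conditions compared. Of all genes, 13.9% were higher and 12.6% lower in STM2457 over the 8 times, and 3.85% were higher at 12 h. Over the DMSO and STM2457 chases 8.2% and 3.03% fell, and 0.916% were higher in the change of the treatment difference. Of 11 naive pluripotency markers 7 were higher and 1 lower in STM2457 over the 8 times (median 0.45), led by Klf2 (0.64) and Esrrb (0.64), 6 fell over the DMSO chase, and 1 rose and 1 fell over the STM2457 chase. At 12 h 7 of the 11 were higher in STM2457 (median 0.89), and in the change of the treatment difference 2 were, Klf2 and Tfcp2l1, with 10 of the 11 above 0 (median 0.37). Their sum lay between 1216 and 2490 CPM in the 71 libraries. Of 12 primed or differentiation markers tested 4 were lower in STM2457 over the 8 times, led by Dnmt3b (−0.51) and Lef1 (−0.64). Of the 12, however, 6 had a difference above 0, and the median was −0.0004. At 12 h 1 was higher and 1 lower (median 0.13). Over the DMSO chase 5 fell, and over the STM2457 chase 4. The 14 counted genes of this list summed to 203 to 515 CPM. The fibroblast markers summed to 4.0 to 25.3 CPM, mainly from Thy1 (median 10.7 CPM). The part of cell state or confluence in the decline of the mitotic genes was not tested.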

How the data were processed

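SLAM-seq 3′-end libraries of mESC were analysed from the deposited tables per library. The authors made them with SLAM-DUNK, allowing a read to map to up to 100 places, masking variants called from the unlabelled libraries, and collapsing 3′ UTR annotations per gene. The submitters' processing notes name GRCm38.p6 and FastQC 0.11.8. The deposited read counts and counts of covered and converted T positions are raw, and the deposited conversion rate is a fraction, which equals conversions over coverage in all 1528417 entries compared. CPM were computed here from the deposited counts. Members, role groups and lists were chosen with earlier results of these data known. Named were the mitotic kinases, Kif4, the members changed most in each test, the 3 longest and 3 shortest half-lives and 2 genes of each other list.

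Read counts were tested with edgeR 4.0.16 (quasi-likelihood, TMM, 18 groups, Benjamini-Hochberg adjusted p under 0.01), with DESeq2 1.42.0 as an alternative. Half-lives were exponential fits to background-subtracted rates scaled to 0 h (T coverage above 100, residual standard error at most 0.3, 0.67 to 18 h), compared with limma 3.58.1 on log2 half-lives (adjusted p under 0.05). Loss of conversions was tested with edgeR on counts of converted positions with coverage as offset (2.3 to 5.3 h against 0 h, adjusted p under 0.05). Alternatives were other size factors, no filter, reads mapping to 1 place, each replicate left out, and a library score. Scripts were tested on simulated data. Libraries of 4539726 to 7368244 reads limit low genes, and 105 pairs of replicates held 0 identical libraries.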

Additional observations from a re-analysis of the deposited data

Results flagged for a closer look

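In the mitotic kinases and the other members described with values in every group, 74 groups were tested for a library that lies apart from the rest, of which chance flags about 1 in 20, and 4 were flagged. These were the DMSO library at 12 h with 46.2 CPM of Aurka (the other three lay at 49.9 to 50.6 CPM), the STM2457 library at 0 h with 185 CPM of Aurka, the DMSO library at 0 h with 230 CPM of Cdk1 and the STM2457 library at 12 h with 187 CPM of Plk1.

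The effect of STM2457 differed between 12 h and 0 h of chase by 0.82 on the log2 scale for Aurka and by 0.72 for Mki67, by the test of the difference itself.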

How the results depend on the processing

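The 18 members that fell over the DMSO chase became 15 to 20 when 1 replicate was left out. The 6 of the STM2457 chase became 15 with the library score as covariate, 11 without the 12 low-score libraries, 3 against 2.3 and 3.5 h and 2 to 7 with a replicate left out. The 2 called for a change of the treatment difference became 1 with no filter on low counts, 1 with reads that map to 1 place, 6 with the score, 5 without the 12 libraries, 1 against 2.3 and 3.5 h and 1 to 2 with a replicate left out. The 14 calls at single times became 25 with the score, 23 without the 12 libraries, 28 with only the groups compared and 6 to 27 with a replicate left out, and the 11 of the mean over times became 8 to 15. The median half-life without 3.5 h was 2.87 h with DMSO alone and 3.07 h with the inhibitor, and 3.14 to 3.42 h and 3.27 to 3.37 h with a replicate left out. Calls for label loss, half-life and s4U stayed at 0 in each alternative run. Plk1 averaged over times reversed to −0.0556 with the score and −0.0166 without the 12 libraries. Of 682 alternative values of 44 single results, 598 kept their direction and call, 81 lost the call, 1 gained it and 2 reversed. The cause of these shifts was not tested. The fits with the score, without the 12 libraries and against 2.3 and 3.5 h were chosen after seeing the data.

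Replicate numbers did not pair DMSO with STM2457 libraries of the same time. Over 35 same-numbered pairs the correlation of deviations had a mean of 0.0097 and exceeded 0.1 in 1. The half-life series join same-numbered libraries across times, and the labels do not say whether these belong together. With the replicate block 19 members were called over the DMSO chase, 6 over the STM2457 chase, 2 for the change of the difference, 13 in the mean over times and 15 at single times. Half-life calls from conversions pooled over replicates were not run, as a series has 1 library per time.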
